A study of Canis lupus familiaris with 34 samples.

Results

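A set of 7 genes that mark Schwann cells and nerve, S100B, SOX10, CDH19, GFRA3, ERBB3, PMP22 and NCAM1, was followed in mitral valve RNA from 34 Cavalier King Charles Spaniels. The genes were found by symbol in the deposited table of 23768 features, with the canine RefSeq feature taken where a symbol had 2 features. Features were found for 6 of the 7 genes, all 6 passed the minimum of 100 counts over all dogs, and S100B was not analysed here. The dogs were privately owned animals of about 10 years of age, sampled after elective euthanasia. The 10y-noCHF group (10 females and 9 males) had no congestive heart failure (CHF), and the 10y-MMVD-CHF group (6 females and 9 males) had CHF caused by myxomatous mitral valve disease (MMVD). The 10y-noCHF group is not a group of healthy valves, since nearly all of its dogs had MMVD at a stage before heart failure. The stage is not paired with the dogs in the labels, so no comparison by stage was made. Each library came from a separate dog and held poly-A RNA of the whole valve sample, with 46185256 to 82361245 counts.

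Schwann cells are the glial cells of peripheral nerves. They arise from the neural crest, ensheath small axons in bundles or wrap single larger axons in myelin, and depend on signals from the axon for their survival. The atrioventricular valves are innervated, with thin nerve fibres within the leaflets. SOX10 is the transcription factor that specifies and maintains peripheral glia, and it is also active in melanocytes. CDH19 is a cadherin of the Schwann cell lineage. ERBB3 is the receptor through which axonal neuregulin reaches Schwann cells. GFRA3 is the co-receptor for artemin, a ligand of the glial cell line-derived neurotrophic factor (GDNF) family that acts on sensory and sympathetic neurons. PMP22 is a protein of compact myelin that many fibroblasts express as well. NCAM1 is an adhesion molecule of neurons and glia that is also found on heart muscle cells and natural killer cells.

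The positions below are those of canFam4, the build of the files. SOX10 lies on chromosome 10 (27680968 to 27691671, plus strand), CDH19 on chromosome 1 (11144673 to 11238321, plus), GFRA3 on chromosome 11 (25932237 to 25943259, minus) and ERBB3 on chromosome 10 (758305 to 776192, plus). PMP22 lies on chromosome 5 (39021336 to 39053605, minus) and NCAM1 on chromosome 5 (19928023 to 20223810, minus). NCAM1 was counted on the 20 exon intervals of its canine RefSeq feature, 8401 bases in all. The other 5 genes are human RefSeq alignments whose features cover the whole gene, introns included, so levels were not compared between genes. The SOX10 feature lies entirely within the feature of POLR2F, an RNA polymerase subunit gene on the opposite strand. The counting used no strand and gave a read to every feature it overlapped, so reads of POLR2F that fell in this stretch could not be told apart from reads of SOX10. POLR2F varied less, between 16.01 and 30.7 CPM (normalised counts, set by edgeR relative to the size of each library), and its level followed that of SOX10 over the 34 dogs with group means removed (Pearson r = 0.533, permutation p = 0.00248; Spearman rho = 0.485, p = 0.00648; adjusted over 2 such relations, 0.00496 and 0.0130). Without the 2 dogs farthest from the POLR2F median r was 0.589. Every read counted for SOX10 was counted for POLR2F as well, so a positive relation was partly set by the counting. It therefore does not tell whether reads of POLR2F entered the SOX10 count. The antisense gene NCAM1-AS1 overlaps 327 bases, or 3.89%, of the NCAM1 exons, and the other 4 genes overlap no other listed gene.

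The dogs CAV1047 and CAV614, both 10y-MMVD-CHF, were least like any other dog. The highest Pearson correlation of their counts with any other dog, over 18419 features, was 0.923 and 0.842. The next lowest of the other dogs were 0.938 (CAV743) and 0.951 (CAV1732), so only CAV614 lay far below the rest. CAV1047 had the highest mean of heart muscle markers of all dogs. It also had the highest SOX10 and CDH19 of the 10y-MMVD-CHF dogs, so leaving it out lowers the mean of that group for both genes. Without both dogs the log2 fold change of 10y-MMVD-CHF against 10y-noCHF was -0.60 for SOX10 (SE 0.72, edgeR FDR 0.867) and -0.43 for CDH19 (SE 0.62, edgeR FDR 0.890). In whole-valve RNA, fewer cells of a type and less RNA per cell cannot be told apart.

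SOX10, the glial transcription factor, did not exceed 8.76 CPM in any valve and varied 182-fold between dogs. The 19 10y-noCHF dogs ranged from 0.0516 to 8.76 CPM with a median of 1.02, and the 15 10y-MMVD-CHF dogs ranged from 0.0480 to 8.10 CPM with a median of 0.815. The 2 groups overlapped over nearly their whole range, and 7 of the 15 CHF dogs exceeded the median of 10y-noCHF. The mean was 2.33 ± 2.77 CPM (SD, n = 19) in 10y-noCHF and 1.79 ± 2.18 CPM (SD, n = 15) in 10y-MMVD-CHF. The log2 fold change was -0.21 (SE 0.65, 95% interval -1.52 to 1.10, edgeR FDR 0.984). The lowest dog had 4 counts of SOX10 and the highest 519, with a median of 52, so the low end is set by few reads.

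CDH19, the Schwann cell cadherin, had a similar profile. Its level ran from 0.473 to 36.7 CPM in 10y-noCHF (median 3.33) and from 0.738 to 38.6 CPM in 10y-MMVD-CHF (median 6.17). The CHF group had the higher median but the lower mean, 9.45 ± 10.8 CPM (SD, n = 15) against 11.8 ± 13.2 CPM (SD, n = 19), and 12 of its 15 dogs exceeded the 10y-noCHF median. The log2 fold change was -0.14 (SE 0.57, interval -1.31 to 1.03, edgeR FDR 0.986). For both genes the interval spans more than a doubling in each direction, so a change of that size was not detectable at this spread.

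The receptors ERBB3 and GFRA3 were lower on average in 10y-MMVD-CHF, by less than the test could call. GFRA3 varied 2.82-fold between dogs, less than SOX10, CDH19, ERBB3 (5.64-fold) and NCAM1. It lay between 3.31 and 8.41 CPM in 10y-noCHF (median 5.49) and between 3.16 and 8.91 CPM in 10y-MMVD-CHF (median 4.43). Only 3 of the 15 CHF dogs were above the 10y-noCHF median, although the highest dog of all, CAV648, was one of them. The means were 5.46 ± 1.39 CPM (SD, n = 19) and 4.71 ± 1.43 CPM (SD, n = 15). The log2 fold change was -0.24 (SE 0.13, interval -0.50 to 0.03). The unadjusted edgeR p was 0.0768 and the FDR 0.813. Without CAV648 the GFRA3 fold change was -0.32, with an unadjusted edgeR p of 0.0118 and an FDR of 0.722. This was the smallest p of the 34 fits that each left out a single dog. The fold change nearest to 0 in those fits was -0.195, without CAV749.

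ERBB3, the neuregulin receptor, ranged from 2.16 to 8.82 CPM in 10y-noCHF (median 3.75) and from 1.73 to 9.75 CPM in 10y-MMVD-CHF (median 2.93). The groups overlapped, with 4 of 15 CHF dogs above the 10y-noCHF median and 3 below the lowest 10y-noCHF dog. The mean was 4.596 ± 2.13 CPM (SD, n = 19) in 10y-noCHF and 3.79 ± 2.23 CPM (SD, n = 15) in 10y-MMVD-CHF. The log2 fold change was -0.28 (SE 0.23, interval -0.75 to 0.19, edgeR FDR 0.901). The 9 CHF males were the lowest of the 4 groups, with a median of 2.77 CPM, and the 6 CHF females the highest, with a median of 4.50 CPM. The interaction of CHF and sex for ERBB3 was -0.82 on the log2 scale (SE 0.45, interval -1.73 to 0.10, unadjusted edgeR p 0.0779, FDR 0.830).

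PMP22 had at least 7944 counts in every dog and was even between dogs. It lay between 236 and 357 CPM in 10y-noCHF (median 299) and between 204 and 357 CPM in 10y-MMVD-CHF (median 308). The means were 300.6 ± 26.4 CPM (SD, n = 19) and 300.7 ± 44.3 CPM (SD, n = 15). The log2 fold change was -0.01 (SE 0.06, interval -0.14 to 0.12, edgeR FDR 0.990). The lowest value was that of CAV1047.

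NCAM1, the neural adhesion molecule, ranged from 57.4 to 222 CPM in 10y-noCHF (median 84.3) and from 40.4 to 378 CPM in 10y-MMVD-CHF (median 94.5). Both extremes belonged to the dogs least like any other, the lowest to CAV614 and the highest to CAV1047. The means were 107 ± 52.1 CPM (SD, n = 19) and 109 ± 78.1 CPM (SD, n = 15). The log2 fold change was 0.05 (SE 0.23, interval -0.42 to 0.51, edgeR FDR 0.989). The sign turned when CAV1047 alone was left out (-0.24, edgeR FDR 0.831), without both dogs (-0.19, SE 0.19, edgeR FDR 0.841) and with the mean of heart muscle markers as a covariate (-0.069). Of the 15 CHF dogs, 10 were above the 10y-noCHF median.

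**Figure D1:**
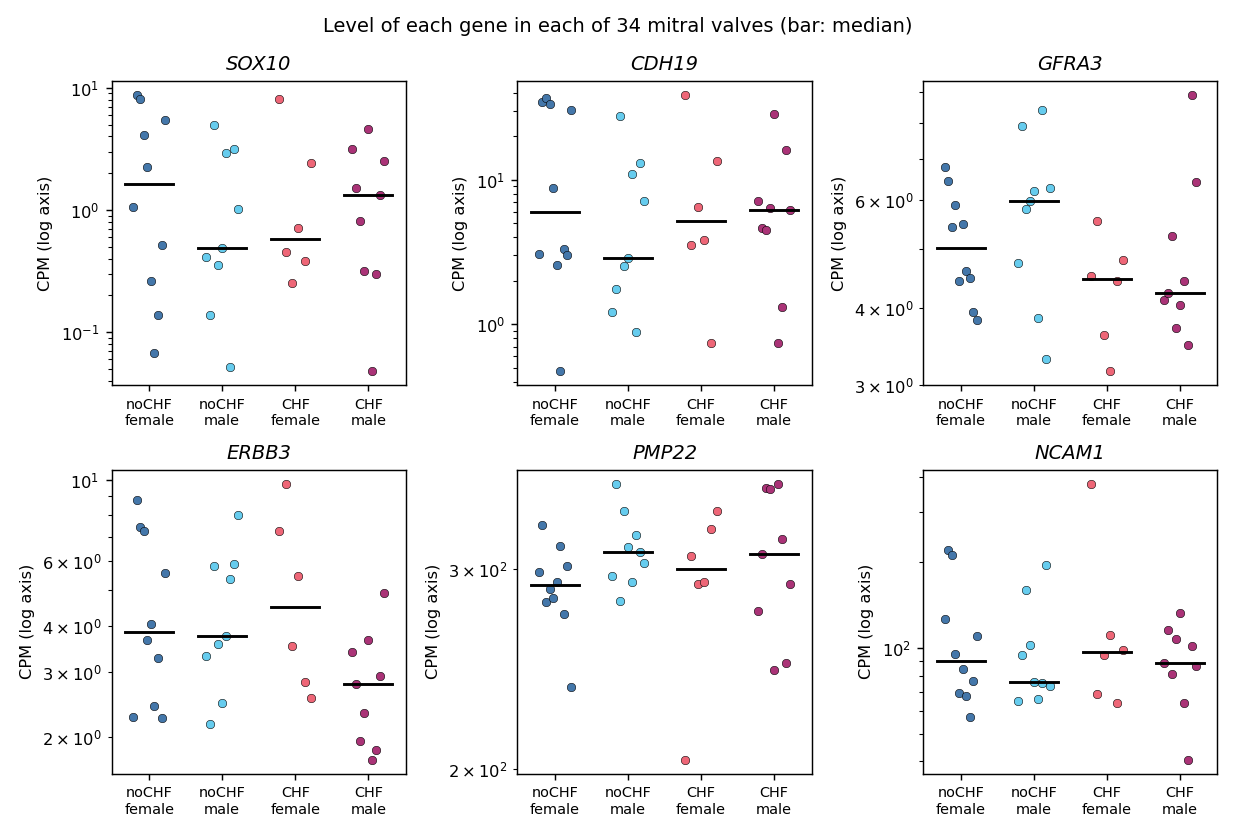
Level in CPM (log axis) of SOX10, CDH19, GFRA3, ERBB3, PMP22 and NCAM1 in each dog, by CHF status and sex, with a bar at the median of each group. The groups (noCHF, 10y-noCHF; CHF, 10y-MMVD-CHF) overlap for all 6 genes, and PMP22 has the smallest spread.

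Of the 6 genes, 0 were called in the comparison of 10y-MMVD-CHF with 10y-noCHF at an FDR below 0.1, where edgeR called 23 of 19568 features (0.118%). At an unadjusted p below 0.05 the count was 0 of 6 as well, against 6.31% of all features, and DESeq2 called 0 of the 6. The median log2 fold change of the 6 genes was -0.17, beside 0.01 for all features. In male against female dogs, SOX10 (-0.74, SE 0.64), CDH19 (-0.78, SE 0.57), ERBB3 (-0.42, SE 0.23) and NCAM1 (-0.34, SE 0.23) had negative log2 fold changes. GFRA3 (0.19, SE 0.13) and PMP22 (0.09, SE 0.06) had positive ones. None of the 6 was called (0.143% of all features were by edgeR, and 2.98% had an unadjusted p below 0.05, against 0 of the 6), and the FDR was 0.9997 for each. The male against female values of the cardiomyocyte markers were negative in 17 of 19 genes, with a median of -0.57, and those of the adipocyte markers in 9 of 9. At an unadjusted edgeR p below 0.05 the counts were 0 of 19 and 1 of 9, and none of these genes was called. With the mean of the cardiomyocyte markers as a covariate the male against female value was -0.24 for SOX10 (SE 0.33) and -0.33 for CDH19 (SE 0.31).

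The interaction of CHF and sex was called for 0 of the 6 genes and 0 of all features by edgeR (0%, with 1178 features, or 6.02%, at an unadjusted p below 0.05, and 0 of the 6), and DESeq2 called 3 features, none of them among the 6. The interaction of SOX10 was 0.70 on the log2 scale (SE 1.29) and that of CDH19 0.64 (SE 1.15). Without CAV1047 and CAV614 these values were 2.11 (SE 1.32) and 1.77 (SE 1.16), with edgeR FDR values of 0.556 and 0.570. CAV1047 alone had the highest SOX10 and CDH19 of the 6 CHF females, at 8.10 and 38.6 CPM against group medians of 0.584 and 5.14 CPM.

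**Figure D2:**
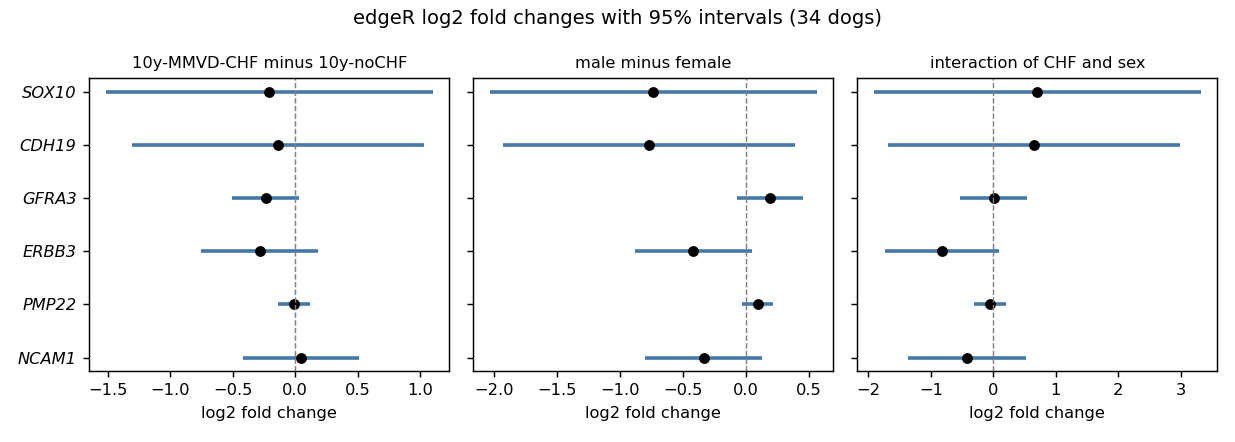
Points are edgeR log2 fold changes and lines their 95% intervals for the 6 genes in 34 dogs, for 10y-MMVD-CHF minus 10y-noCHF, male minus female, and the interaction of CHF and sex. Every interval includes 0, and those of SOX10 and CDH19 are the widest.

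The spread between dogs of the same group and sex was large for SOX10 and CDH19. On log2(CPM + 1) values with group means removed, the SD was 1.05 for SOX10 and 1.49 for CDH19, and only 2.09% and 1.07% of the 19568 features had a larger one. The SD was 0.65 for NCAM1 (6.05% of features larger), 0.53 for ERBB3 (9.78%), 0.31 for GFRA3 (31.9%) and 0.18 for PMP22 (74.7%). The median over all features was 0.24.

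The same dogs were high for SOX10 and CDH19. The 7 dogs with the highest SOX10, between 4.11 and 8.76 CPM, were also the 7 with the highest CDH19, between 27.4 and 38.6 CPM. The highest of the other 27 dogs had 3.16 CPM of SOX10 and 15.9 CPM of CDH19. Of these 7 dogs, picked out after their values were seen, 5 were 10y-noCHF and 5 were female, and 5 were among the 7 highest for NCAM1. All 7 were among the 10 dogs with the highest mean of the 19 cardiomyocyte markers, at 8.54 to 10.7 on the log2(CPM + 1) scale, where the other 27 dogs had a median of 6.38. SOX10 levels ran on without a gap between these dogs and the rest, while CDH19 levels stepped from 15.9 to 27.4 CPM. The dogs were not treated as separate clusters.

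Over the 34 dogs, with group means removed and dogs permuted within groups, 9 of the 15 pairs of the 6 genes were related at an adjusted Spearman p below 0.1. SOX10 and CDH19 had the strongest relation (r = 0.913, rho = 0.896, both permutation p = 1e-05, the smallest these resamples can give, and rho p = 0.00015 adjusted over 15 pairs). Leaving out the 2 dogs farthest from the CDH19 median gave r = 0.897, and rho was 0.926 in 10y-noCHF and 0.750 in 10y-MMVD-CHF. SOX10 and NCAM1 followed (r = 0.742, permutation p = 2e-05; rho = 0.675, permutation p = 0.00011, adjusted 0.00055; r without 2 dogs 0.651). Within the groups rho of this pair was 0.647 and 0.693. For SOX10 and ERBB3 r was 0.630 (permutation p = 0.00032) and rho 0.626 (p = 0.00036, adjusted 0.00108), with r = 0.673 without 2 dogs. For SOX10 and ERBB3 the rho was 0.691 in 10y-noCHF and 0.561 in 10y-MMVD-CHF. CDH19 was related to NCAM1 (rho = 0.705) and ERBB3 (rho = 0.632) as SOX10 was, and ERBB3 and NCAM1 were related with rho = 0.434.

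PMP22, though a myelin protein, ran the other way. Its rho was -0.536 with SOX10 (r = -0.546, without 2 dogs -0.405), -0.561 with CDH19 and -0.493 with ERBB3, with permutation p values of 0.00117, 0.00066 and 0.00289 and adjusted values of 0.00251, 0.00165 and 0.00542. Within 10y-MMVD-CHF the rho of PMP22 and SOX10 was -0.632, and within 10y-noCHF -0.414 (adjusted permutation p 0.136). None of the relations of GFRA3 with the other 5 genes passed, with rho between -0.0411 and 0.217.

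**Figure D3:**
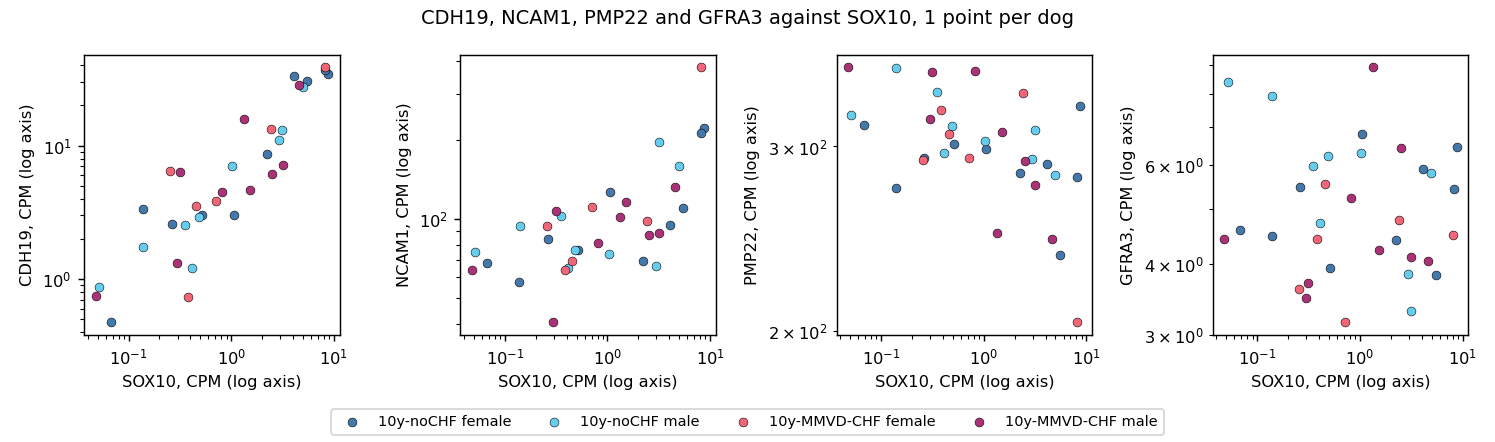
CDH19, NCAM1, PMP22 and GFRA3 (CPM, log axes) against SOX10 (CPM, log axis), 1 point per dog, coloured by group. CDH19 and NCAM1 rise with SOX10 (rho 0.896 and 0.675 with group means removed), PMP22 falls (-0.536), and GFRA3 had a rho of -0.0411.

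SOX10, CDH19, ERBB3 and NCAM1, the 4 positively related genes, were also related to markers of tissue other than nerve. Heart muscle was part of the samples to very different degrees. The summed level of 19 cardiomyocyte markers, such as the myosin heavy chains MYH6 and MYH7, ran from 58.0 to 27631 CPM in 10y-noCHF (median 3728) and from 82.3 to 57981 CPM in 10y-MMVD-CHF (median 5159), and 0 of the 19 were at 0 in every dog. SOX10 was related to the mean of these markers (r = 0.842, rho = 0.886, both permutation p = 1e-05, the smallest possible, adjusted over 60 relations 0.00015 for rho; r without 2 dogs 0.848). Its rho was 0.891 in 10y-noCHF and 0.839 in 10y-MMVD-CHF. CDH19 (rho = 0.875), NCAM1 (0.673) and ERBB3 (0.469) were related to it in the same direction, PMP22 in the opposite one (-0.575), and the relation of GFRA3 did not pass (-0.0515, adjusted permutation p 0.831). SOX10 was also related to the mean of 9 adipocyte markers (rho = 0.696), whose summed level was 10.7 to 152 CPM in 10y-noCHF and 12.7 to 165 CPM in 10y-MMVD-CHF.

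A regression on the cardiomyocyte mean left part of these relations. The rho of SOX10 and CDH19 was then 0.722 (permutation p = 7e-05, adjusted 0.00105), that of SOX10 and ERBB3 0.567 (adjusted 0.0143) and that of SOX10 and NCAM1 0.411 (adjusted 0.0756). For PMP22 and SOX10 the rho was -0.256 (adjusted permutation p 0.310). In all, 5 of 15 pairs remained below the threshold.

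The markers of valve interstitial cells, the fibroblasts of the leaflet, were related to 4 of the 6 genes with the opposite signs. The summed level of 9 of their markers, among them the collagens COL1A1, COL1A2 and COL3A1, was 12635 to 31458 CPM in 10y-noCHF and 14434 to 29297 CPM in 10y-MMVD-CHF. PMP22 was related to their mean with rho = 0.700 (permutation p = 3e-05, adjusted 0.0003; r = 0.733, permutation p = 1e-05, without 2 dogs 0.675), and with rho = 0.633 after the regression on the cardiomyocyte mean. SOX10 (-0.583), CDH19 (-0.615) and ERBB3 (-0.583) were negatively related to it, and the relation of NCAM1 did not pass (-0.162, adjusted permutation p 0.493). Of the 60 relations computed, 6 of them with the total counts of the dogs, 33 were below the adjusted threshold. Those with total counts were not, with rho from -0.304 for NCAM1 to 0.305 for PMP22.

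SOX10 is shared by Schwann cells and melanocytes, so the melanocyte genes were examined. DCT, an enzyme of melanin synthesis, was at 0 in all 34 dogs, and MLANA, TYR and TYRP1 did not exceed 0.255, 0.286 and 0.361 CPM. PMEL, a structural protein of the melanosome, was above 0 in every dog, at 0.591 to 2.86 CPM, and so were SLC45A2 (0.218 to 1.498 CPM), OCA2 (0.854 to 4.15 CPM) and TRPM1 (0.140 to 1.28 CPM). The summed level of the 10 melanocyte markers was 21.2 to 49.3 CPM in 10y-noCHF and 22.4 to 56.2 CPM in 10y-MMVD-CHF. Most of it came from MITF (9.63 to 43.1 CPM) and GPR143 (3.68 to 10.6 CPM), which are not restricted to melanocytes. OCA2, TRPM1 and GPR143 were counted on human RefSeq features of 397583, 131957 and 44844 bases. The rest of the list was counted on canine RefSeq features, so these levels are not comparable between genes. The mean of this list was related to NCAM1 (rho = 0.628), SOX10 (0.468) and CDH19 (0.389). Without CAV1047 and CAV614 the relation of CDH19 to this list did not pass (rho = 0.321, adjusted permutation p 0.173). With a pseudocount of 0.1 in place of 1, rho was 0.326 for SOX10 (adjusted permutation p 0.148) and 0.186 for CDH19 (adjusted 0.415), neither of which passed, and 0.369 for NCAM1 (adjusted 0.0903). NCAM1 is also a marker of natural killer cells, and the 8 markers of natural killer and T cells were negatively related to it (rho = -0.488). Of these markers, KLRB1, GZMA, KLRD1 and PRF1 were near the floor, at no more than 0.134, 0.324, 0.518 and 0.667 CPM. Natural killer cells as a source of NCAM1 were thus not tested.

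**Figure D4:**
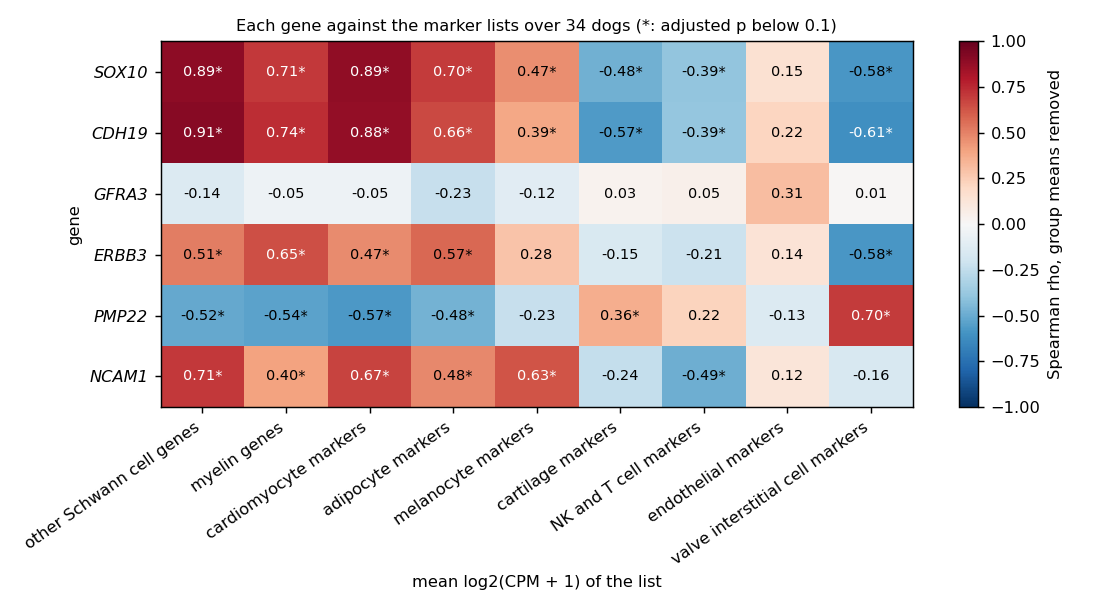
Spearman rho over 34 dogs, with group means removed, between each of the 6 genes and the mean log2(CPM + 1) of 9 gene lists, where an asterisk marks an adjusted permutation p below 0.1. SOX10 and CDH19 have rho of 0.886 and 0.875 with the cardiomyocyte markers, PMP22 has its highest value with the valve interstitial cell markers (0.700), and GFRA3 has no asterisk.

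Other genes of the Schwann cell lineage and of nerve were read from lists of other Schwann cell genes, myelin genes, ligands and receptors of the neuregulin, GDNF and neurotrophin families, axon and neurotransmitter genes, and NCAM-related adhesion genes. None of the 81 genes tested on these lists was called between 10y-MMVD-CHF and 10y-noCHF at an FDR below 0.1 (0.118% of all features were). Of the 19 other Schwann cell genes, 11 had positive values, the median log2 fold change was 0.07, and 1 had an unadjusted p below 0.05, where 6.31% of all features did. This was ADGRG6, a receptor needed for the onset of myelination, at 24.7 CPM in 10y-noCHF and 32.8 CPM in 10y-MMVD-CHF (log2 fold change 0.42, SE 0.12, unadjusted edgeR p 0.00149, FDR 0.369).

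Among 16 myelin genes, 11 had negative values between the CHF groups, with a median of -0.07. MAG, an adhesion molecule of the myelin sheath, was near the floor, at no more than 0.494 CPM (log2 fold change -1.37, SE 0.55, unadjusted edgeR p 0.0182, FDR 0.662). CNP, an enzyme of myelinating glia that other cells express too, was at 29.5 to 52.5 CPM (0.15, SE 0.06, unadjusted edgeR p 0.0198, FDR 0.677). The list thus ran from near absence to an even level in all dogs.

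The partners of the receptors were measured as well. ERBB2, the kinase that pairs with ERBB3, was even at 30.8 to 52.3 CPM (log2 fold change -0.01, SE 0.07), and ERBB4 had the smallest p of its 6 genes (0.15, SE 0.11, unadjusted edgeR p 0.182, FDR 0.876). NRG1, the neuregulin that ERBB3 binds, ran from 7.84 to 76.3 CPM (-0.05, SE 0.24). ARTN, the ligand of GFRA3, had 56 counts in all dogs together and was not tested. RET, the kinase through which GFRA3 signals, lay between 7.07 and 15.4 CPM (0.06, SE 0.09). GFRA2, the neurturin co-receptor, was at 10.4 CPM in 10y-noCHF and 7.24 CPM in 10y-MMVD-CHF (-0.50, SE 0.18, unadjusted edgeR p 0.00992, FDR 0.599). Of the 6 GDNF family genes tested, 4 had negative values, with a median of -0.18.

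Of 8 neurotrophins and receptors, 5 had negative values between the CHF groups, with a median of -0.27. The sorting receptor SORT1 had the smallest p (log2 fold change 0.15, SE 0.07, unadjusted edgeR p 0.0501, FDR 0.786). Of 19 axon and neurotransmitter genes, 11 had negative values, with a median of -0.18. SCN9A, a sodium channel of sensory and sympathetic neurons, was at 30.6 CPM in 10y-noCHF and 22.5 CPM in 10y-MMVD-CHF (-0.44, SE 0.14, unadjusted edgeR p 0.00280, FDR 0.427), and PRPH, an intermediate filament of peripheral neurons, was at 7.13 to 64.3 CPM (-0.18, SE 0.26). All 7 NCAM-related adhesion genes had negative values, between -0.24 and -0.02 with a median of -0.12, and NFASC had the smallest p (-0.20, SE 0.17, unadjusted edgeR p 0.253, FDR 0.910). ALCAM, another adhesion molecule of that list, was at 59.6 to 133 CPM. These medians stand beside 0.01 for all features.

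The families of PMP22 and S100B were read in the same way. EMP1 and EMP3, relatives of PMP22, were at 154 to 433 and 36.5 to 97.5 CPM, with log2 fold changes of -0.10 each (SE 0.09 and 0.10). Of 14 S100 genes tested, calcium-binding proteins of many cell types, 8 had positive values and 0 were called. S100A10 was at 118 CPM in 10y-noCHF and 100 CPM in 10y-MMVD-CHF (-0.25, SE 0.07, unadjusted edgeR p 0.00169, FDR 0.385), and S100A6 was at 41.6 to 120 CPM. S100A1, which heart muscle expresses, was at 20.7 to 163 CPM. The only gene of all lists that was called between the CHF groups was the endothelial gene VWF, at 79.6 CPM in 10y-noCHF and 205 CPM in 10y-MMVD-CHF (log2 fold change 1.40, SE 0.30, edgeR FDR 0.0678).

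Between males and females, 4 of the 19 other Schwann cell genes had an unadjusted edgeR p below 0.05, all lower in males, where 1.40% of all features were. Among these were TTYH1 (-0.67, p 0.00833), NGFR (-0.50, p 0.0175) and L1CAM (-0.67, p 0.0230), each with an FDR of 0.9997. In all, 15 of the 19 genes had negative values with a median of -0.26, beside the mostly negative values of the cardiomyocyte and adipocyte markers given above. The part of these tissues in the difference was not tested for these genes.

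The genes of the nerve lists were set against SOX10 in an analysis added after the data were seen. Of 19 other Schwann cell genes, 7 had a rho above 0.5 with SOX10, beside 14.9% of all features, and 0 were below -0.5. Negative values past the adjusted threshold over 81 relations were those of FABP7 (-0.448), LGI4 (-0.422) and GAP43, a growth-associated protein of axons and immature Schwann cells (-0.435, and -0.561 after the regression on the cardiomyocyte mean). FABP7 (-0.315, adjusted permutation p 0.212) and LGI4 (-0.0399, adjusted 0.866) did not pass after this regression. FABP7 had a mean of 0.460 CPM, so its ranks rest on few reads. Before the regression the highest of the 19 were SCN7A, a sodium channel of non-myelinating Schwann cells (rho = 0.940), and XKR4 (0.876). SCN7A ranged from 0.0303 to 71.8 CPM. After the regression on the cardiomyocyte mean both stayed related to SOX10, with rho of 0.817 and 0.791, and 4 of 19 were above 0.5, beside 8.88% of all features. The collagen COL28A1, known from the surface of Schwann cells, fell from 0.752 to 0.478, and L1CAM from 0.507 to 0.0533.

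Of the 16 myelin genes, 4 had a rho above 0.5, beside 14.9% of all features, among them DRP2 (0.708), NCMAP (0.671) and MAL (0.520). After the regression 2 of 16 were above 0.5, beside 8.88% of all features. DRP2, a gene of the myelin-forming Schwann cell, then had a rho of 0.747. NCMAP fell to 0.231 (adjusted permutation p 0.393) and MAL to 0.448 (adjusted 0.0593). Before the regression, MBP (0.292), PRX (-0.155) and MAG (-0.046) did not pass the adjusted threshold over 81 relations, and CNP was negative (-0.439). The myelin list was thus not uniform, and PMP22 lay on the negative side with CNP.

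Of the 19 axon and neurotransmitter genes, 5 were above 0.5 and 3 below -0.5, beside 14.9% and 9.99% of all features. Those above 0.5 were SCN10A (0.797), a sodium channel of sensory neurons, SNAP25 (0.774), a synaptic vesicle fusion protein, NEFL (0.759), a neurofilament, UCHL1 (0.635) and STMN2 (0.539). PRPH (-0.671), CHRNA3 (-0.645) and NPY (-0.606) were negative. SCN10A, SNAP25, NEFL and STMN2 were low, each with a lowest value of 0 CPM. The means of these 4 genes over all dogs were 0.460, 1.47, 0.509 and 0.364 CPM, so their ranks rest on few reads. After the regression SCN10A alone of the 19 was above 0.5 (0.601) and 0 were below -0.5, beside 8.88% and 3.53% of all features.

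Of the 7 NCAM-related adhesion genes tested, 2 had a rho above 0.5 with SOX10, beside 14.9% of all features. After the regression 1 of the 7 was above 0.5, beside 8.88% of all features. This was CHL1, a relative of L1CAM, with a rho of 0.903 before the regression and 0.655 after it. Of the other lists, the neurotrophin receptors NTRK2 (-0.675) and NTRK3 (-0.654) were negative, and NTRK2, at 275 to 947 CPM, had a rho of -0.749 after the regression. Of the neuregulins, NRG1 was negative with SOX10 (-0.451, and -0.523 after the regression), while ERBB2 (0.164) did not pass.

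**Figure D5:**
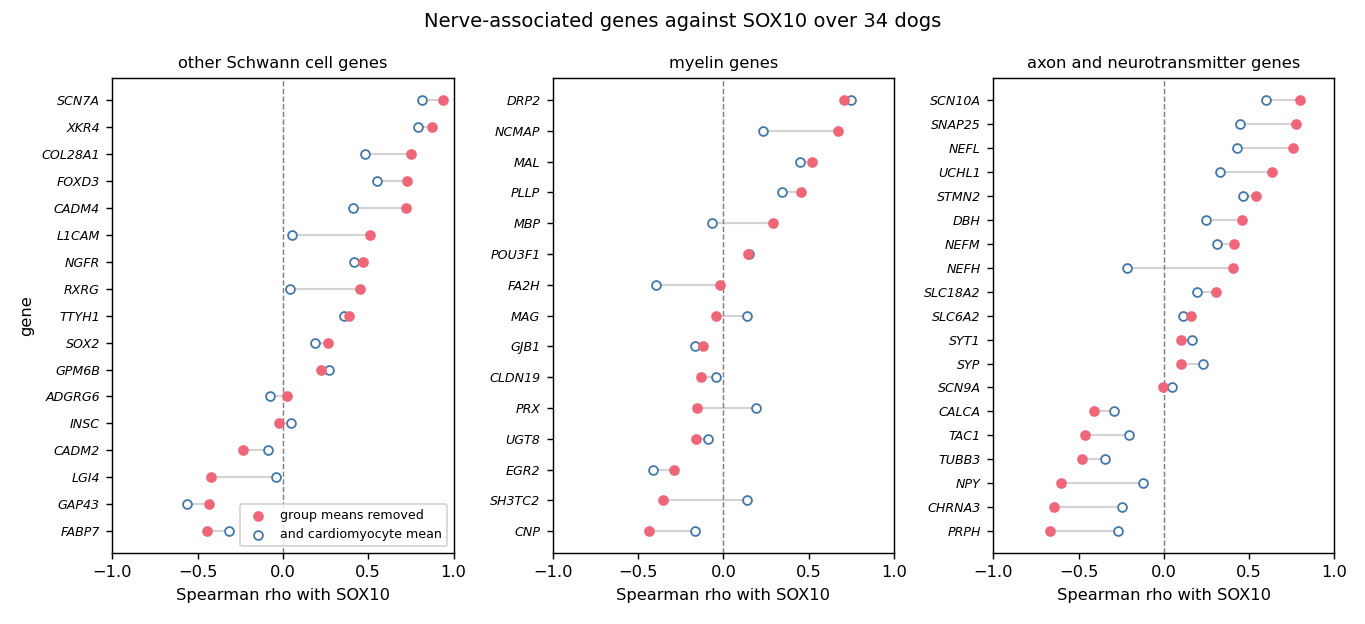
Spearman rho with SOX10 over 34 dogs for 17 other Schwann cell genes, 15 myelin genes and 19 axon and neurotransmitter genes, with group means removed (filled) and after a further regression on the cardiomyocyte marker mean (open). SCN7A, XKR4 and DRP2 stay above 0.5 in both, while PRPH moves from -0.671 towards 0.

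The features most like each gene were listed from 15341 candidates with a mean of at least 50 counts per dog. For SOX10 the 10 highest included COQ9 (rho = 0.954), WNK2 (0.948), CACNB2 (0.946), CTNNA2 (0.945), HSPB3 (0.943), PLA2G2A (0.943), CPNE5 (0.943), NOTCH4 (0.941) and SCN7A (0.940). COQ9 makes coenzyme Q in mitochondria, CACNB2 is a calcium channel subunit of heart muscle and HSPB3 a small heat shock protein of muscle, and SCN7A alone of the 10 was on a nerve list. For CDH19 they were NPR3 (0.940), CXCL12 (0.938) and HPGDS (0.935). For NCAM1 they were MIA3 (0.883), ATP9A (0.879) and DDB1 (0.875), and for ERBB3 ARHGEF37 (0.760), COQ5 (0.755) and RABL3 (0.745). For PMP22 they were C1QTNF1 (0.748), FLRT3 (0.741) and KIN (0.721). GFRA3 had the weakest, with SYT7 (0.650), CAV1 (0.650) and PGBD2 (0.628). These values describe 34 dogs that share differences in tissue make-up, and no p is given for them.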

How the data were processed

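RNA of 34 mitral valves was sequenced in pairs of 150 bases after poly-A selection. Reads were aligned by the authors to canFam4 (STAR), and the deposited values are unnormalised counts from featureCounts 2.0.3, made without strand, with a read given to every feature it overlaps and the reads of a pair counted separately (71% of counts above 0 were even). The table holds 2165 canine RefSeq and 21603 human RefSeq features, and 1 column that matches no sample was not used. Groups and sexes follow the labels. The 19568 features that reached 100 counts over all dogs were tested with edgeR 4.0.16 (quasi-likelihood, TMM, sex as covariate, Benjamini-Hochberg FDR below 0.1) in R 4.3.3, and SE values were derived from its test statistic. CPM are TMM-scaled. Each p sets a difference against the spread between dogs, and counting error dominates at a few counts.

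Correlations used log2(CPM + 1) with group means removed and 100000 two-sided permutations of dogs within groups (Python 3.11.15, numpy 2.4.6, scipy 1.17.1, pandas 2.3.3), Benjamini-Hochberg adjusted with a threshold of 0.1. The genes and lists were chosen with earlier results of these data known. Named genes were the set itself, the 10 features most like SOX10 and 3 for each other gene, list genes with an FDR below 0.1, and per nerve list the gene with the smallest p and the one with the highest level per length, a rank that mixes exon and whole-gene features and was used for choice alone. Genes named for their relation to SOX10, for their sex p or as partners of a receptor were chosen after values were seen. Alternatives were DESeq2 1.42.0, the tool of the study, limma 3.58.1 voom with sample weights, RLE and upper-quartile scaling, no filter, filterByExpr, no sex term, marker means as covariates, an FDR threshold of 0.05, a pseudocount of 0.1, each CHF group alone and leaving out each dog. The fits without CAV1047 and CAV614, the regression of marker relations on the cardiomyocyte mean, that mean as a covariate of the sex comparison, the relations with total counts and overlapping genes and the nerve lists against SOX10 were added after the data were seen. Some genes of the lists are not reported here. The count and permutation tests were tested on simulated data.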

Additional observations from a re-analysis of the deposited data

Results flagged for a closer look

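In the 10y-MMVD-CHF females, CAV1047 stood apart from the other 5 dogs for 2 of the 6 genes, by Dixon's gap test on log2(CPM + 1). PMP22 was lowest in CAV1047, with 204 CPM and a gap to the next dog of 0.705 of the whole range. NCAM1 was highest in CAV1047, with 378 CPM and a gap of 0.689 of the range. The critical value for 6 dogs is 0.625. In all, 24 such tests were made, of which chance alone would mark about 1.2. Neither gene was called in any comparison with or without this dog.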

How the results depend on the processing

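None of the 6 genes was called in any comparison under any setting run. In 10y-MMVD-CHF against 10y-noCHF the count of all features called was 23, and it was 9 at an FDR of 0.05, 64 with DESeq2 and 13 without the sex term. Leaving out single dogs gave 8 (without CAV1519) to 28 (without CAV743). It was under 16 in 15 of the 34 fits, those without CAV1097, CAV1196, CAV1259, CAV1519, CAV1790, CAV2102, CAV2156, CAV444, CAV447, CAV488, CAV494, CAV648, CAV749, CAV828 or CAV901. The interaction called 3 features with DESeq2 and 0 with edgeR. Small log2 fold changes between the CHF groups changed sign. With voom SOX10 was 0.14, CDH19 0.018 and PMP22 0.022, PMP22 was 0.000333 without the sex term, and NCAM1 was -0.069 with the cardiomyocyte mean as covariate. Without CAV1047 and CAV614 PMP22 was 0.023 and NCAM1 -0.19. Leaving out single dogs gave -0.66 to 0.047 for SOX10, -0.50 to 0.17 for CDH19, -0.031 to 0.026 for PMP22 and -0.24 to 0.15 for NCAM1. The interaction of GFRA3 was -0.010 with upper-quartile scaling, -0.00435 without a filter and -0.00679 with voom, and -0.15 to 0.087 without single dogs. That of NCAM1 was 0.11 with voom, 0.31 without CAV1047 and CAV614, and -0.59 to 0.21 without single dogs. Male against female values kept their sign throughout.

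Of the pairs, 9 passed in the main setting and 5 after the regression on the cardiomyocyte mean. After it, rho was 0.111 for SOX10 and GFRA3, 0.126 for CDH19 and GFRA3 and 0.0765 for PMP22 and NCAM1, each of opposite sign to the main value. CDH19 and GFRA3 had 0.00474 with RLE scaling. In 10y-noCHF alone PMP22 and NCAM1 had 0.133. In 10y-MMVD-CHF alone rho was 0.311 for SOX10 and GFRA3, 0.186 for CDH19 and GFRA3 and -0.0286 for GFRA3 and NCAM1. Of the marker relations, 33 passed, 10 after the regression (SOX10 with cartilage markers turned to 0.0845), 20 in 10y-noCHF alone and 18 in 10y-MMVD-CHF alone. The regression setting holds no relation with the cardiomyocyte markers, so its count is over fewer relations than the main one. Fewer dogs enter the counts of each CHF group alone, and the other causes were not tested. No paired analysis was possible because each dog has its own number. At the spread of SOX10 between dogs (SD 1.05 on the log2 scale), and with 4 counts in the lowest dog, small differences in SOX10 were not detectable.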
